A study of Homo sapiens with 7 samples.

Results

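The SOX genes examined here are 10 members of a transcription factor family, SOX2, SOX3, SOX4, SOX6, SOX7, SOX9, SOX11, SOX15, SOX17 and SOX18. They were taken by symbol from a table of 23262 genes measured by RNA-seq, and all 10 were found. The table follows a human embryonic stem cell (hESC) line, labelled H3, with 2 fluorescent reporters, eGFP for the cardiac transcription factor NKX2-5 and mCherry for the myosin gene MYH6 (alpha-MHC), as it differentiates toward heart muscle. The 7 libraries are undifferentiated hESC on day 0, CD13+/ROR2+ cells (labelled mesoderm progenitor) and CD13-/ROR2- cells (labelled endoderm progenitor) on day 3, CD13+/ROR2+/NKX2-5+ cells (labelled cardiac progenitor) and CD13+/ROR2+/NKX2-5- cells (cell type given as unknown) on day 7, and CD13+/ROR2+/NKX2-5+/aMHC+ cells (labelled cardiomyocytes) and CD13+/ROR2+/NKX2-5+/aMHC- cells (cell type given as unknown) on day 14. The sorted fractions of days 7 and 14 are called NKX2-5+, NKX2-5-, aMHC+ and aMHC- below. All 7 share the line and its reporters. Each group has 1 library, so the differences have no replicate check and no test is given.

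SOX proteins share the HMG box, a DNA-binding domain that grips the minor groove and bends the helix, and they act with partner factors that differ between cell types. They are grouped by letters. SOX2 and SOX3 (SOXB1) mark pluripotent and neural cells, SOX4 and SOX11 (SOXC) serve progenitors of many tissues, including the outflow tract of the heart, and SOX6 (SOXD) works in cartilage, muscle and red blood cells. SOX9 (SOXE) directs cartilage and takes part in heart valve formation, SOX7, SOX17 and SOX18 (SOXF) act in vessels and, for SOX17, in endoderm, and SOX15 is placed on its own in SOXG.

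Levels are in FPKM, reads scaled to transcript length and to the number mapped. Depth is known only relative to hESC, from the steps between low values. It was lowest in day 7 NKX2-5+, at 0.602 times hESC, and highest in day 14 aMHC-, at 3.09 times with a less sharp estimate, while day 7 NKX2-5- could not be placed. Values well under 1 FPKM therefore rest on few reads. Abundant genes such as HNRNPD were listed at 0 in some libraries, so a 0 may be an estimate that failed. No fold is given against a 0, and calls that rest on one are named. In bulk samples, fewer cells of a type and less RNA per cell cannot be told apart. The size rule asked for a 4-fold difference between libraries in FPKM + 1 (a log2 ratio of 2 or more in size) and for 5 FPKM or more in the higher of them, and genes past it are called higher or lower. Of the 10 SOX genes, 4 reached 5 FPKM in any library (SOX2, SOX4, SOX11 and SOX17), and the other 6 could not be called at that minimum.

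The leading SOX gene differed between stages. Summed over the 10 genes, unscaled expression was 54.3 FPKM in hESC, 28.6 in day 3 CD13+/ROR2+, 99.3 in day 3 CD13-/ROR2-, 9.7 in day 7 NKX2-5+, 31.7 in day 7 NKX2-5-, 21.0 in day 14 aMHC+ and 25.2 in day 14 aMHC-. At equal sums, with all libraries brought to 1 common FPKM total, the sum was 89.6 in NKX2-5+ and 76.5 in NKX2-5-, the reverse order. CD13-/ROR2- stayed highest, at 567. SOX2 made up 48.5% of that sum in hESC and 68.5% in CD13-/ROR2-. SOX17 made up 62.0% in CD13+/ROR2+. SOX4 led the other 4 libraries, with 61.4% in NKX2-5+, 59.9% in NKX2-5- and 47.7% in each of the day 14 fractions, and SOX11 came second on day 14. At 1 FPKM or more stood 7 of the 10 genes in CD13-/ROR2-, 5 in hESC, 4 in NKX2-5-, 3 each in CD13+/ROR2+ and both day 14 fractions, and 2 in NKX2-5+.

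**Figure D1:**
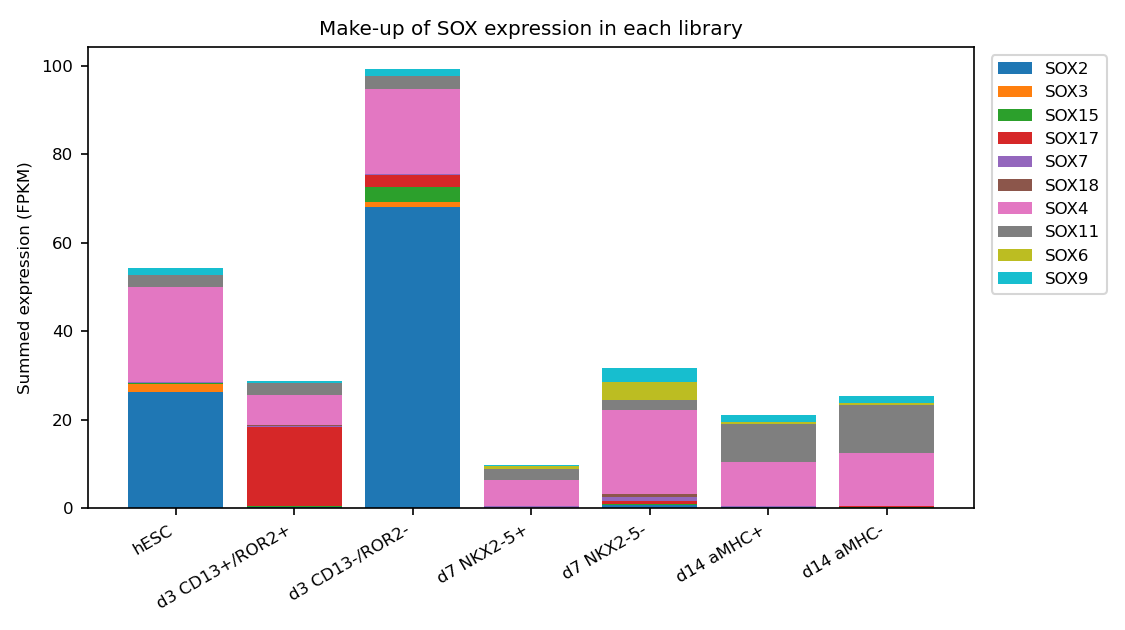
Stacked bars give the summed unscaled FPKM (vertical axis) of the 10 SOX genes in each of the 7 libraries (horizontal axis), 1 colour per gene and 1 library per group. The order of the day 7 bars reverses at equal sums. SOX2 fills most of the tallest bar, day 3 CD13-/ROR2- (99.3 FPKM), SOX17 most of the CD13+/ROR2+ bar, and SOX4 and SOX11 most of the bars of day 14.

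Windows of 250 bases before the annotated start are shown for 3 of these genes, SOX2 and SOX3, whose levels followed each other across the libraries (below), and SOX4, which was present in all 7. They come from RefSeq on GRCh38.p14, a later build than the hg19 named for the expression values, and run 5′ to 3′ on each gene's strand. They are chr3:181711675-181711924 on the plus strand for SOX2, chrX:140505070-140505319 on the minus strand for SOX3 and chr6:21593501-21593750 on the plus strand for SOX4. Capitals mark matches to 6 motifs searched on both strands, the octamer ATGCAAAT, the SOX core AACAAT, the TCF and SOX core CTTTGT, the CCAAT box CCAAT, the GC box GGGCGG and the TATA box TATAAA.
SOX2: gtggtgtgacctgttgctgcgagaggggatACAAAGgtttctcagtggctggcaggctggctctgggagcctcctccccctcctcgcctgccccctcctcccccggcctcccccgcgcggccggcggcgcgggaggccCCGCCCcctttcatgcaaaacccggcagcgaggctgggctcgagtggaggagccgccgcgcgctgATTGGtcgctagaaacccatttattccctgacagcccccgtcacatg
SOX3: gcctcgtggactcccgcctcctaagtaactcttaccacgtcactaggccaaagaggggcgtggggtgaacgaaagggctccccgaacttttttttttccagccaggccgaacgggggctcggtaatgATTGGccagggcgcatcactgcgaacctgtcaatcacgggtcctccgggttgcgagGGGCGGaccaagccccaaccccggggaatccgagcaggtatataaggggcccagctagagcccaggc
SOX4: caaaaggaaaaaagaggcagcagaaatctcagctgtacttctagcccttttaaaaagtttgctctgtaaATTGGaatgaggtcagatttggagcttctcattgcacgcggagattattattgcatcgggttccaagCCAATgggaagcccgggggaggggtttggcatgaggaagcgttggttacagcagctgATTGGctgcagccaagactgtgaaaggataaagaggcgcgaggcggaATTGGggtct
The SOX2 window holds the reverse complement of the CCAAT box (ATTGG) 47 bases before the start, a GC box on the opposite strand and the TCF and SOX core on the opposite strand. The SOX3 window also holds ATTGG, 123 bases before the start, and a GC box. The SOX4 window holds the CCAAT box 4 times, 1 time as CCAAT and 3 times as ATTGG. Among 35116 windows of the same length, 32.0% hold the CCAAT box, 42.6% the GC box, 13.7% the TCF and SOX core, 10.7% the TATA box, 8.98% the SOX core and 1.63% the octamer. These are matches of letters, with no binding measured. Of the 10 SOX genes, 4 have an entry in the promoter table (SOX2, SOX3, SOX4 and SOX6).

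SOX2, which with POU5F1 (OCT4) maintains pluripotency, was abundant in hESC and CD13-/ROR2- and at or near 0 in the rest. It stood at 26.3 FPKM in hESC, 68.0 in CD13-/ROR2-, 0.295 in CD13+/ROR2+, 0.601 in day 7 NKX2-5-, 0.105 in day 14 aMHC+, 0.0542 in day 14 aMHC- and was listed at 0 in day 7 NKX2-5+. The CD13-/ROR2- library was 231-fold above CD13+/ROR2+ and 2.58-fold above hESC, and hESC was 89.2-fold above CD13+/ROR2+. On the log2(FPKM + 1) scale the ratios of CD13+/ROR2+ were -5.74 against CD13-/ROR2- and -4.40 against hESC, both past the size rule. CD13-/ROR2- over hESC was 1.34, short of it.

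SOX2 lies within the span of the long noncoding gene SOX2-OT, and the libraries were not stranded, so reads of the pair could be assigned either way. SOX2-OT was low throughout, with 0.900 FPKM in hESC, 0.576 in CD13-/ROR2- and at most 0.0823 in the other 5 libraries. It too was highest where SOX2 was abundant, but stood higher in hESC than in CD13-/ROR2-, the reverse of SOX2.

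SOX3, a SOXB1 gene of neural progenitors, was low and followed SOX2. Its levels were 1.68 FPKM in hESC, 0.122 in NKX2-5- and 1.19 in CD13-/ROR2-, and it was listed at 0 in the other 4 libraries. The Pearson correlation of SOX2 and SOX3 over the 7 libraries (log2 scale) was 0.957, a description that rests on the same 2 libraries being high for both. The third SOXB1 gene, SOX1, was listed at 0 in 6 libraries and at 0.0433 FPKM in NKX2-5-.

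SOX15, which stem cells are known to express, was above 1 FPKM in CD13-/ROR2- only, among these libraries. It was at 3.34 FPKM there, between 0.173 and 0.253 in 5 others and listed at 0 in NKX2-5+. CD13-/ROR2- exceeded CD13+/ROR2+ 15.2-fold and hESC 13.7-fold in plain quotients. On the log2(FPKM + 1) scale these came to -1.83 for CD13+/ROR2+ over CD13-/ROR2- and 1.80 for CD13-/ROR2- over hESC, and the gene did not reach 5 FPKM. SOX15 overlaps MPDU1, a gene of protein glycosylation, whose 3.97 FPKM in CD13-/ROR2- was its lowest of the 7 libraries in unscaled FPKM (at equal sums NKX2-5- was lowest).

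Partners and targets of SOX2 were read from a list of 11 pluripotency genes. In CD13+/ROR2+ over hESC, 4 of 11 were lower and 0 higher (median -1.88 on the log2 scale, beside -0.01 over all genes of at least 5 FPKM), with NANOG at 0.660 against 36.5 FPKM and its partner POU5F1 at 11.2 against 154. TDGF1 (171 against 145 FPKM) and SALL4 (37.9 against 31.9) stood above hESC, short of the size rule. In CD13-/ROR2- over hESC, 0 were higher and 1 lower (median 0.11, beside -0.02), that 1 being LEFTY1, a NODAL antagonist, at 1.34 against 39.1 FPKM. POU5F1 stood at 64.8 FPKM in CD13-/ROR2-, below its hESC level, whereas SOX2 stood above its own. FGF4, a growth factor gene bound by SOX2 and OCT4 together, was at 2.18 FPKM in CD13-/ROR2- against 0.177 in hESC and 0.189 in CD13+/ROR2+. On day 7 and day 14, POU5F1 did not exceed 0.181 FPKM in any of the 4 libraries. Other listed genes remained on day 7, with DPPA4 at 12.4 and LIN28A at 12.1 FPKM in NKX2-5-, and LIN28A at 5.57 in NKX2-5+. The unscaled sum of the list was 762 FPKM in hESC, 30.4 in NKX2-5- and 13.9 in NKX2-5+. At equal sums it was 3034, 73.2 and 129.

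Since SOX2 and SOX3 also mark neural cells, a list of 10 neuroectoderm genes was read beside them. Its summed level was 79.1 FPKM in CD13+/ROR2+, where SOX2 was low, against 22.1 in CD13-/ROR2- and 10.5 in hESC. PAX6, SIX3 and ZIC1, its defining members, were at most 0.0939 FPKM in these 3 libraries. OTX2, a head organizer and neural gene (37.3 FPKM in CD13+/ROR2+ against 1.53 in CD13-/ROR2-), and NCAM1, an adhesion molecule (24.6 against 1.13), were called higher in CD13+/ROR2+, and 0 of the 10 lower. NES, also of the list, lay the other way, at 10.8 FPKM in CD13+/ROR2+ against 16.9 in CD13-/ROR2-, short of the size rule.

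SOX17, a regulator of endoderm and of arterial endothelium, showed the opposite order to SOX2 on day 3. It was at 17.8 FPKM in CD13+/ROR2+, 2.71 in CD13-/ROR2-, 0.704 in NKX2-5-, 0.0849 in aMHC- and 0.0263 in aMHC+, and was listed at 0 in hESC and NKX2-5+. CD13+/ROR2+ was 6.56-fold above CD13-/ROR2- and 25.2-fold above NKX2-5-. On the log2(FPKM + 1) scale, CD13+/ROR2+ over CD13-/ROR2- was 2.34, past the size rule (1.56 and short of it with a pseudocount of 5). SOX17 was thus high in 1 library of 7, the fraction labelled mesoderm progenitor, and intermediate in the fraction labelled endoderm progenitor.

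Of 11 definitive endoderm genes, 10 stood higher in CD13+/ROR2+ than in CD13-/ROR2-, as SOX17 did, and FOXA3 stood lower (1.82 against 2.20 FPKM). Of the 11, 6 passed the size rule as higher and 0 as lower (median 2.18, beside 0.03 over all genes of at least 5 FPKM). FOXA2, the pioneer factor that defines endoderm together with SOX17, was at 3.88 against 0.0874 FPKM, and CXCR4, a chemokine receptor of migrating mesendoderm, at 10.2 against 0.507. The summed level of the list was 1924 FPKM in CD13+/ROR2+, of which CER1, an inhibitor of NODAL signalling, was 1736, and 37.1 FPKM in CD13-/ROR2-. Over hESC, 3 of the 11 were higher and 0 lower in CD13-/ROR2- (median 0.29, beside -0.02), namely EOMES (14.9 FPKM, listed at 0 in hESC), CER1 (11.7 against 0.549) and GATA6 (5.34, listed at 0 in hESC). FOXA2 was near 0 in both (0.0874 and 0.0572). CD13-/ROR2-, labelled endoderm progenitor, thus had more of 3 genes of this list than hESC. It had less of 6, the same 3 among them, than the fraction labelled mesoderm progenitor, and it is called here by its sort. How many cells carried SOX17 or FOXA2 RNA was not measured.

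Counted over the 10 SOX genes, 1 was higher (SOX17) and 1 lower (SOX2) in CD13+/ROR2+ than in CD13-/ROR2-, beside 3.69% higher and 2.54% lower of the 5875 genes that reached the minimum (217 and 149 genes, or 487 and 512 at equal sums, with all libraries brought to 1 common FPKM total). Against hESC there was again 1 higher (SOX17) and 1 lower (SOX2), beside 4.5% and 2.54% of 5871. That SOX17 call rests on hESC listed at 0, and 0 SOX genes were higher once genes at 0 in either library were left out. In CD13-/ROR2- over hESC, 0 were higher and 0 lower, beside 1.45% and 1.17% of 5705 (83 and 67 genes, or 437 and 112 at equal sums). Of the SOX genes, 3, 3 and 2 reached 5 FPKM in these comparisons, too few for a share to be read. The comparisons share libraries and are not independent of each other.

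**Figure D2:**
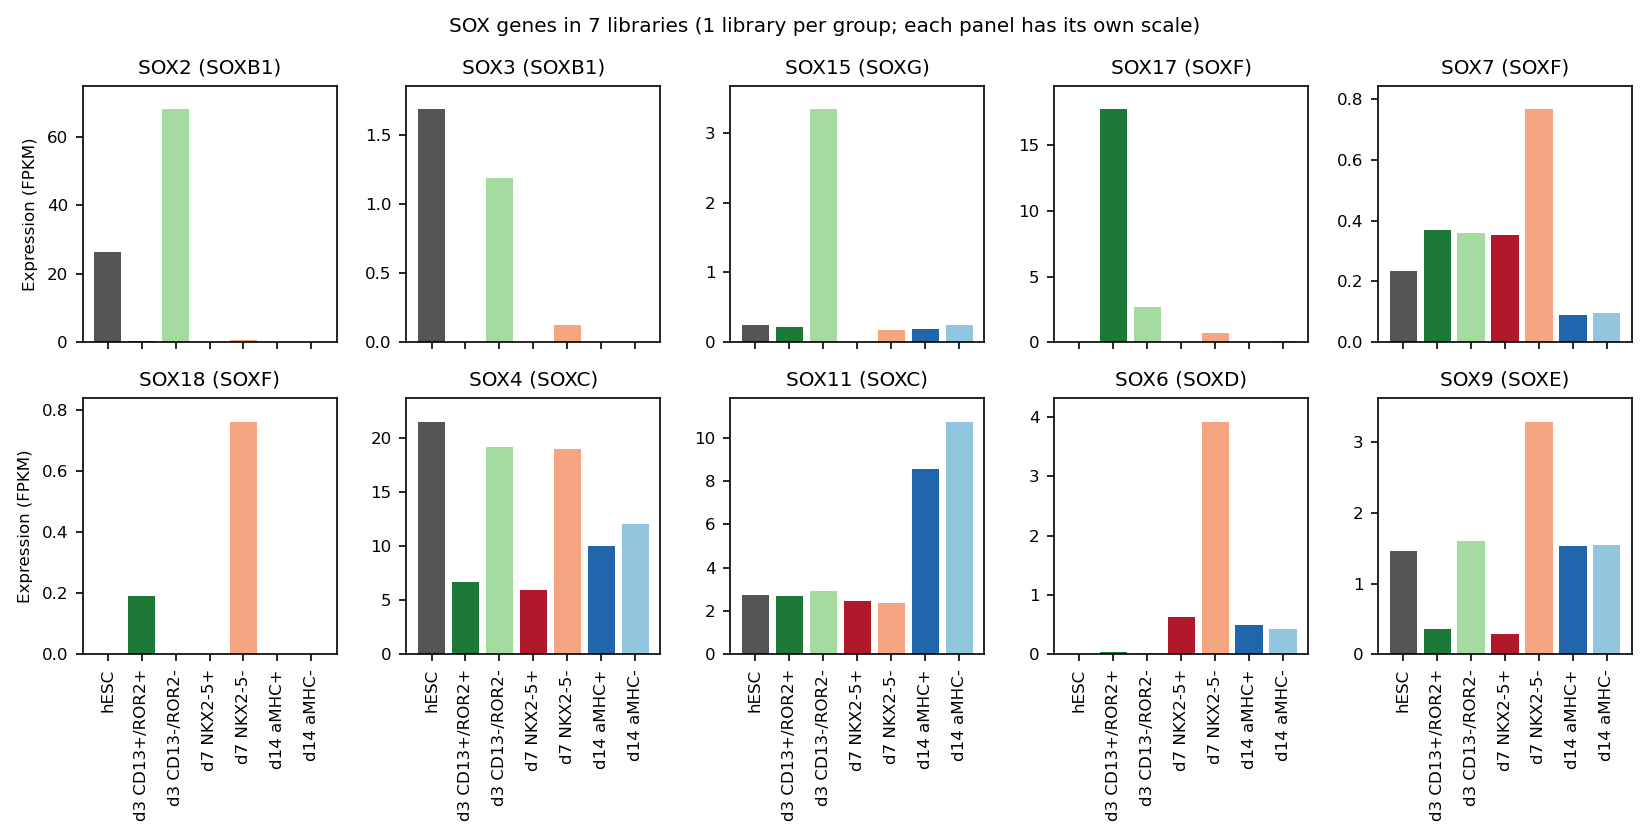
Bars give the FPKM (vertical axis, a separate scale in each panel) of each SOX gene in the 7 libraries (horizontal axis), 1 library per group, with no error bars because there are no replicates. SOX2 and SOX3 are high in hESC and day 3 CD13-/ROR2-, SOX17 in day 3 CD13+/ROR2+ (17.8 FPKM), SOX18 and SOX6 in day 7 NKX2-5-, as are SOX7 and SOX9 in these unscaled values but not at equal sums, and SOX11 highest on day 14.

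SOX4 was the SOX gene found at 5 FPKM or more in all 7 libraries. It stood at 21.6 FPKM in hESC, 6.71 in CD13+/ROR2+, 19.2 in CD13-/ROR2-, 5.95 in NKX2-5+, 19.0 in NKX2-5-, 10.0 in aMHC+ and 12.0 in aMHC-. In unscaled FPKM the values fall into 3 high libraries (hESC, CD13-/ROR2- and NKX2-5-) and 4 lower ones, with the fractions sorted as CD13+/ROR2+ on day 3 and NKX2-5+ on day 7 lowest. The range was 3.62-fold. On the log2(FPKM + 1) scale CD13+/ROR2+ was -1.39 against CD13-/ROR2- and -1.55 against hESC, neither past the size rule.

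On day 7, SOX4 in NKX2-5+ over NKX2-5- was -1.52, or -1.15 after median-ratio scaling (each library divided by its median ratio to the geometric mean of the 7), but 0.26 at equal sums, so its direction depends on the scaling. Values in day 7 NKX2-5+ were low across genes, with a median-ratio shift of -0.43 on the log2 scale against NKX2-5- and -0.69 against CD13+/ROR2+. In NKX2-5+ over CD13+/ROR2+ the SOX4 ratio was -0.15, and 0.45 after median-ratio scaling.

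SOX11, the closest relative of SOX4, differed from it in pattern. It was between 2.39 and 2.91 FPKM in the 5 libraries of days 0, 3 and 7, and at 8.56 in aMHC+ and 10.7 in aMHC-. Those 5 earlier values were 2.76 in hESC, 2.71 in CD13+/ROR2+, 2.91 in CD13-/ROR2-, 2.47 in NKX2-5+ and 2.39 in NKX2-5-. At equal sums the earlier values were less even, from 5.77 in NKX2-5- to 22.8 in NKX2-5+, against 42.3 in aMHC+ and 36.6 in aMHC-. How many of all genes lay higher in both day 14 libraries was not counted. Over NKX2-5+, aMHC+ was 3.47-fold and aMHC- 4.35-fold, or 1.46 and 1.76 on the log2(FPKM + 1) scale, short of the size rule. After median-ratio scaling these were 0.99 and 1.1. SOX11 relative to SOX4, a ratio within a library that no scaling alters, was 0.414 in NKX2-5+, 0.855 in aMHC+ and 0.891 in aMHC-, and between 0.126 and 0.403 in the other 4.

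SOX12, the third SOXC gene, ranged in unscaled FPKM from 3.38 in hESC to 5.63 in aMHC-. At equal sums its range was wider, from 10.7 in NKX2-5- to 42.0 in NKX2-5+. Of 4 genes listed as targets of SOX4 and SOX11, 1 was higher and 0 lower in each day 14 fraction than in NKX2-5+ (medians of 0.73 in aMHC+ and 1.15 in aMHC-, beside 0.73 and 0.95 over all genes of at least 5 FPKM). That gene was TUBB3, a tubulin of neurons, at 0.561 FPKM in NKX2-5+, 24.8 in aMHC+ and 49.6 in aMHC-. TUBB3 was also 18.3 FPKM in hESC and 8.24 in NKX2-5-. TEAD2, a partner of the YAP coactivator, was at 12.6 FPKM in NKX2-5+, 22.1 in aMHC+ and 31.5 in aMHC-. STMN1 also rose, from 23.4 FPKM in NKX2-5+ to 38.3 in aMHC+ and 49.3 in aMHC-. DCX fell, from 2.12 FPKM in NKX2-5+ to 0.849 in aMHC+ and 1.14 in aMHC-. The levels of these 4 targets are unscaled. The unscaled sum of the 4 targets was 38.7 FPKM in NKX2-5+, 86.1 in aMHC+ and 132 in aMHC-. At equal sums these came closer together, at 357, 426 and 449. TEAD2 alone was not read at equal sums.

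SOX6, a SOXD factor of muscle, cartilage and red cells, was highest in day 7 NKX2-5- and did not reach the minimum of 5 FPKM. It was at 3.93 FPKM there, 0.632 in NKX2-5+, 0.488 in aMHC+, 0.432 in aMHC-, 0.0447 in CD13+/ROR2+, 0.0225 in CD13-/ROR2- and 0.0144 in hESC. All 4 libraries of days 7 and 14 lay above the 3 earlier ones, a split that was not counted over all genes. NKX2-5- over CD13+/ROR2+ was 2.24 on the log2(FPKM + 1) scale, past the size of 2 but not the minimum. In unscaled FPKM the NKX2-5- value was 6.21-fold that of NKX2-5+. At equal sums these were 9.47 and 5.84, or -0.61 for NKX2-5+ over NKX2-5- on the log2(FPKM + 1) scale. SOX5, its SOXD partner in cartilage, was at 4.01 FPKM in NKX2-5- and 1.95 in NKX2-5+, but also at 3.56 in CD13+/ROR2+. At equal sums the day 7 order of SOX5 reversed, with 9.67 in NKX2-5- and 18.0 in NKX2-5+. SOX13, the other SOXD gene, was highest in earlier libraries, at 9.71 FPKM in hESC and 8.82 in CD13-/ROR2- against 1.80 to 3.15 in the rest.

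For SOX6, a cofactor and 4 globin genes were read beside it. BCL11A, which represses fetal globin together with SOX6, was at 2.07 FPKM in NKX2-5-, within its range of 1.26 to 6.63 over the libraries. The embryonic globin gene HBE1 was at 1.03 FPKM in NKX2-5- and highest in aMHC- at 4.25, and HBG1 and HBZ were listed at 0 in all 7. The close paralogs HBG1 and HBG2 could share reads.

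SOX9, the master regulator of cartilage, never reached 5 FPKM. It was highest in NKX2-5- in unscaled FPKM and after median-ratio scaling, and in CD13-/ROR2- at equal sums. It stood at 3.29 FPKM in NKX2-5-, 1.61 in CD13-/ROR2-, 1.54 in aMHC-, 1.53 in aMHC+, 1.46 in hESC, 0.359 in CD13+/ROR2+ and 0.289 in NKX2-5+. Both CD13+/ROR2+ and NKX2-5+ were low, as for SOX4, and the 4 values between 1.46 and 1.61 were close to each other. NKX2-5- was 11.4-fold above NKX2-5+ in unscaled FPKM (-1.73 for NKX2-5+ over NKX2-5- on the log2(FPKM + 1) scale, -1.68 after median-ratio scaling). At equal sums these were 7.92 and 2.67, or -1.28 on that scale.

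Of 10 cartilage matrix genes listed as SOX9 targets, 6 stood lower in NKX2-5+ than in NKX2-5-, as SOX9 did, and 3 higher. COL11A1 was at 0.165 against 3.31 FPKM and MATN3 at 0.189 against 1.38. COL2A1, the main collagen of cartilage, was at 138 FPKM in NKX2-5+, 39.3 in NKX2-5-, 50.8 in aMHC-, 43.7 in aMHC+ and at most 0.838 in the 3 earlier libraries. HAPLN1, a hyaluronan link protein gene, was at 50.6 FPKM in CD13+/ROR2+, where SOX9 was low too, 14.6 in NKX2-5- and 1.81 in NKX2-5+. By the size rule, 0 of 10 were higher and 1 lower in NKX2-5+ than in NKX2-5- (HAPLN1, median -0.50, beside -0.47 over all genes of at least 5 FPKM). COL2A1 was 1.79 there, short of the size rule, but past it after median-ratio scaling (2.22). ACAN and COMP, which define cartilage cells, were at most 0.240 and 0.0973 FPKM in any library.

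The SOXF genes other than SOX17 were low in all libraries and, in unscaled FPKM, highest in NKX2-5-. SOX7 was at 0.767 FPKM in NKX2-5-, 0.369 in CD13+/ROR2+, 0.360 in CD13-/ROR2-, 0.353 in NKX2-5+, 0.236 in hESC, 0.0950 in aMHC- and 0.0880 in aMHC+. SOX18 was at 0.762 FPKM in NKX2-5-, 0.191 in CD13+/ROR2+ and listed at 0 in the other 5. With SOX17 at 0.704 FPKM, the 3 SOXF genes were at like levels in NKX2-5-, whereas in CD13+/ROR2+ SOX17 stood far above the other two. At these levels few reads support each value, and neither SOX7 nor SOX18 could be called. For SOX7, the day 7 ratio of NKX2-5+ over NKX2-5- was -0.38, but 0.58 at equal sums.

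Endothelial genes, in whose cells the 3 SOXF factors act together, were read beside them. Of 17 genes, 14 were at 1 FPKM or more in NKX2-5-, 6 in NKX2-5+ and 3 or 4 in each of the other 5 libraries. In NKX2-5- over CD13+/ROR2+, 3 were higher and 0 lower (median 1.15, beside -0.31 over all genes of at least 5 FPKM), namely PLVAP, a protein of vessel fenestrae (15.6 against 0.0192 FPKM), CDH5, the cadherin of endothelial junctions (6.17 against 0.00898), and ESAM, an adhesion molecule (6.12 against 0.0695). In CD13+/ROR2+, the library with the most SOX17, CDH5, PECAM1 and PLVAP did not exceed 0.0212 FPKM and CLDN5 and EMCN were listed at 0. Other listed genes were present there, with KDR at 8.04 FPKM, FLT1 at 4.47, EGFL7 at 1.20 and VWF at 1.14. The endothelial list summed to 69.8 FPKM in NKX2-5- and 14.7 in NKX2-5+, or 168 and 136 at equal sums. In CD13-/ROR2- it summed to 42.1 FPKM, with FLT1 at 22.4 and KDR at 16.2. At equal sums CD13-/ROR2- was the highest library, at 240. The part of the endothelial list in the SOX7 and SOX18 levels was not tested.

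Other cell type markers also moved with NKX2-5-. Over the 4981 genes of at least 5 FPKM, 5.42% were lower and 2.03% higher in NKX2-5+ than in NKX2-5-, with a median of -0.47. Of 10 fibroblast and epicardium genes, 7 were lower and 0 higher (median -3.57). Their summed level was 46.6 against 720 FPKM, or 430 against 1736 at equal sums. Their defining members PDGFRB (0.747 against 24.3 FPKM) and TBX18 (0.754 against 18.6) were among the 7. Cardiomyocyte genes lay the other way, with 7 of 10 higher and 0 lower (median 2.25). Their sum was 2803 against 613 FPKM, or 25898 against 1477 at equal sums. Of 8 neural crest genes, 6 were at 1 FPKM or more in NKX2-5- and 1 in NKX2-5+, with unscaled sums of 13.5 and 2.10 FPKM. At equal sums these came closer together, at 32.6 and 19.4. The unscaled sum was highest in CD13-/ROR2-, at 35.2 FPKM. SOX10, the SOXE gene of neural crest, was at 5.19 FPKM in NKX2-5-, 3.21 in CD13-/ROR2-, 0.964 in CD13+/ROR2+ and 0.599 in hESC, at most 0.0523 on day 14 and listed at 0 in NKX2-5+. At equal sums it was highest in CD13-/ROR2- (18.3, against 12.5 in NKX2-5-). Of 9 SOX family genes outside the 10, SOX10 was the 1 that passed the size rule in any of the 9 comparisons. It did so as lower in NKX2-5+ than in NKX2-5- (-2.63), a call that rests on the 0 in NKX2-5+. The part of these cell types in the SOX6, SOX9 and SOX4 levels was not tested.

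**Figure D3:**
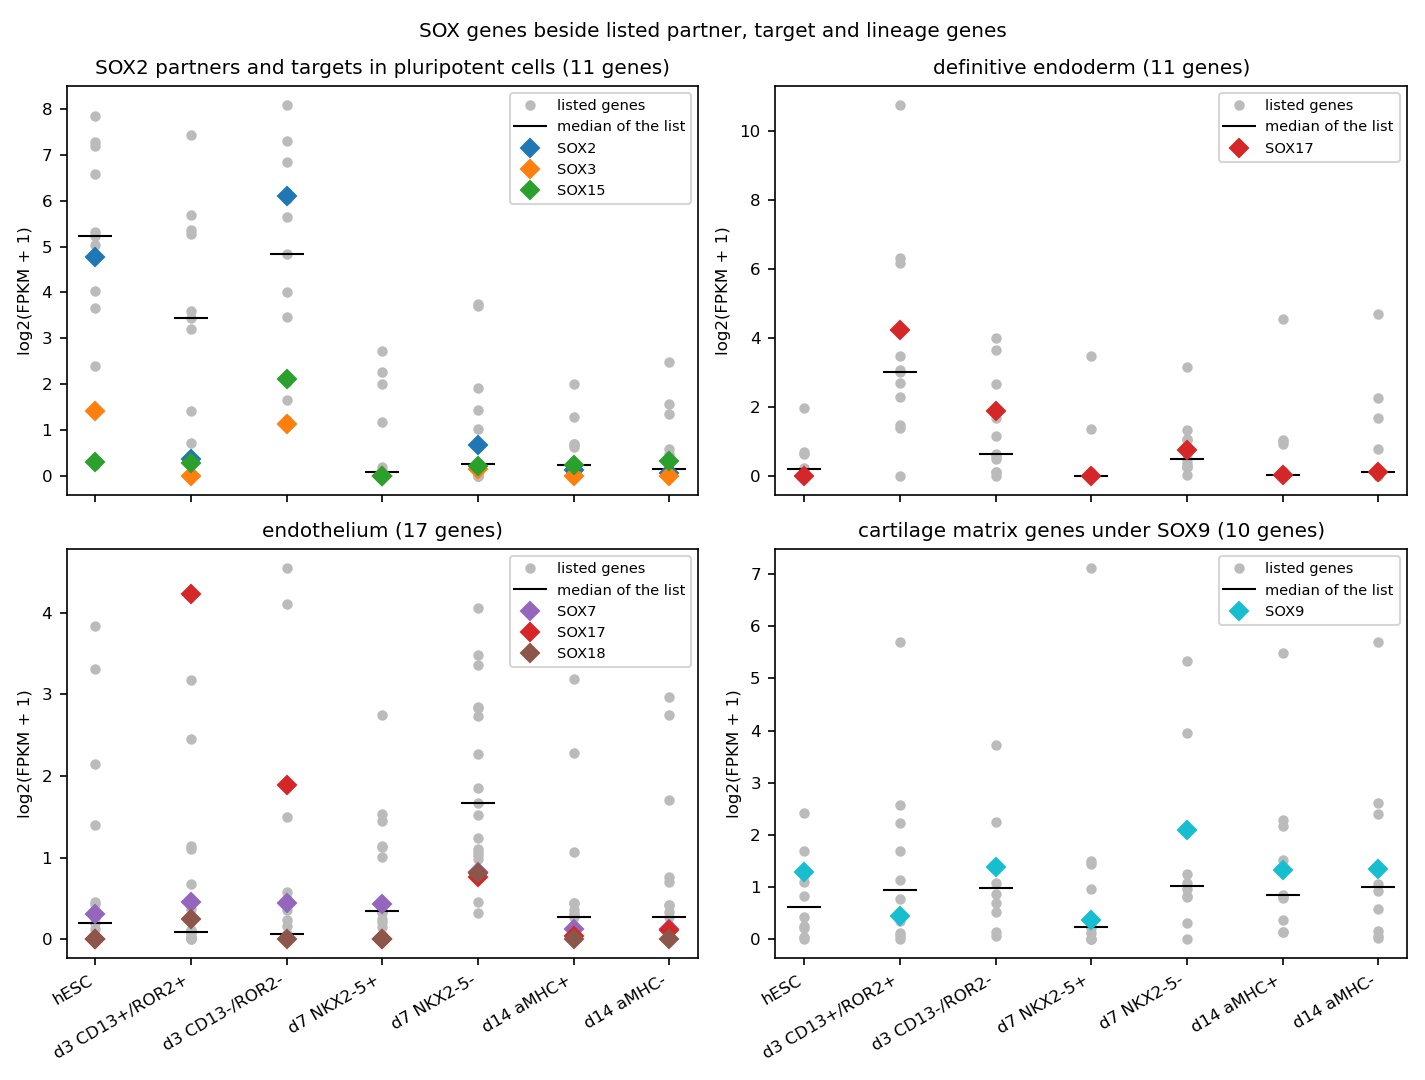
Each panel gives log2(FPKM + 1) (vertical axis) in the 7 libraries (horizontal axis) for the genes of 1 list (grey points, with a bar at their median) and the SOX genes set beside them (coloured diamonds). SOX2 lies near the median of its partners in hESC and above it in day 3 CD13-/ROR2-, SOX17 is highest with the endoderm list in day 3 CD13+/ROR2+, and the endothelial median of these unscaled values is highest in day 7 NKX2-5-.

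In the day 7 comparison of NKX2-5+ with NKX2-5-, 0 of the 10 SOX genes were higher and 0 lower, beside 2.03% and 5.42% of 4981 genes. Over all genes 101 were higher and 270 lower, which became 166 and 208 with median-ratio scaling, 2081 and 129 at equal sums, and 171 and 179 at equal sums computed without small RNA and histone genes. Only SOX4 reached 5 FPKM there. Of the 10, 9 had ratios below 0 in unscaled FPKM and SOX11 was at 0.03, but at equal sums SOX4 (0.26), SOX7 (0.58) and SOX11 (1.81) were above 0. The share of all genes below 0 was not counted. The unscaled median of the 10 was -0.72, beside -0.47 over all genes of at least 5 FPKM, a minimum that most of the 10 did not reach.

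Against CD13+/ROR2+, 1 of the 10 was lower in NKX2-5+ (SOX17) and 0 higher, beside 9.09% and 4.38% of 5633 genes, or 512 and 247 genes. These became 282 and 404 with median-ratio scaling, 787 and 1049 at equal sums, and 277 and 436 when small RNA and histone genes were left out of those sums. In NKX2-5- it was again SOX17 that was lower and 0 were higher, beside 3.69% and 5.35% of 5939 (219 and 318 genes, or 2203 and 347 at equal sums). The NKX2-5+ call rests on a library listed at 0. The NKX2-5- call, at -3.46, fell just short of the rule with a pseudocount of 5.

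The day 14 fractions were alike in their SOX genes. None of the 10 passed the size rule between aMHC+ and aMHC- (0 higher and 0 lower, beside 0.648% and 0.35% of 5712 genes, or 37 and 20, which became 130 and 23 at equal sums and 14 and 0 with small RNAs and histones left out of the sums), and the 10 ratios lay between -0.30 and 0.07. SOX11 was at 8.56 against 10.7 FPKM (-0.30 on the log2 scale, but 0.20 at equal sums). SOX9 was at 1.53 and 1.54, SOX6 at 0.488 and 0.432, SOX15 at 0.185 and 0.253, and SOX7 at 0.0880 and 0.0950 FPKM. SOX3 and SOX18 were listed at 0 in both. With 1 library each, closeness of the values does not show that the fractions act alike.

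Over day 7 NKX2-5+, 0 of the 10 were higher or lower in aMHC+, beside 7.68% higher and 0.829% lower of 5310 genes, and 0 in aMHC-, beside 11.8% and 1.34% of 5745. The median-ratio shift was 0.61 and 0.83 here, and median-ratio scaling changed the split over all genes from 408 higher and 44 lower to 209 and 111 in aMHC+, and from 678 and 77 to 246 and 192 in aMHC-. At equal sums these were 483 and 592 in aMHC+ and 361 and 1106 in aMHC-, and 119 and 151, and 137 and 265, with small RNAs and histones left out of the sums. SOX9 was 5.28-fold and 5.32-fold above NKX2-5+ in plain quotients, 0.97 and 0.98 on the log2(FPKM + 1) scale (0.79 and 0.67 after scaling). SOX4 was 1.68-fold and 2.02-fold above it, but 0.12 and 0.17 on the log2 scale after median-ratio scaling and -0.19 and -0.18 without small RNA and histone genes at equal sums, so no direction is given for it. SOX7 was lower, 4.01-fold and 3.72-fold in plain quotients, from 0.353 FPKM.

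**Figure D4:**
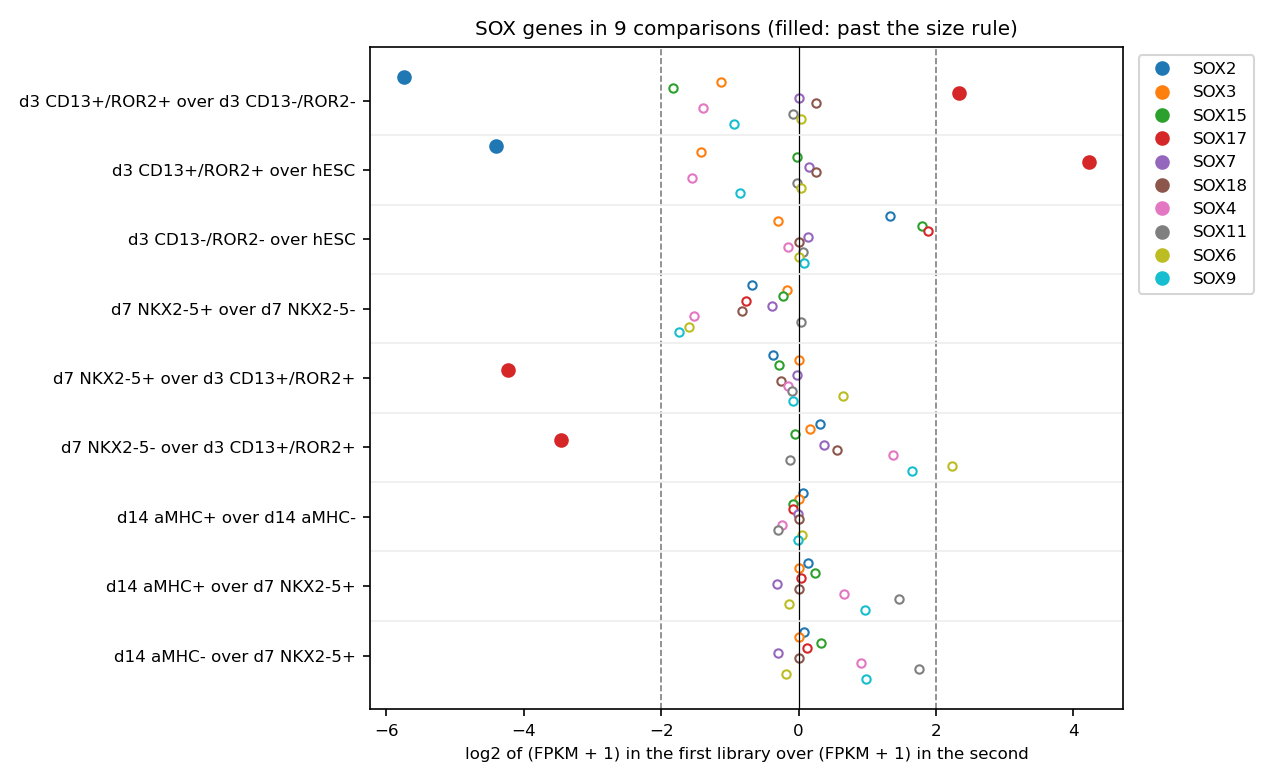
Points give, for each SOX gene (colour), log2 of (FPKM + 1) in the first library over (FPKM + 1) in the second (horizontal axis) in the 9 comparisons (vertical axis), with dashed lines at -2 and 2 and filled points for genes past the size rule. SOX2 and SOX17 alone have filled points, 2 and 4 of them, and the day 14 pair lies closest to 0.

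For the 4 SOX genes that reached 5 FPKM, the genes of most similar pattern were found by Pearson correlation of log2(FPKM + 1) over the 7 libraries among 7209 genes. With 7 points that share libraries, and with 1 or 2 of them high, many genes come close to 1. SOX2 was closest to MARVELD3, a tight junction protein gene (r = 0.994), GALNT3, a glycosyltransferase gene (0.993), and GRHL2, a transcription factor gene of epithelia (0.992). SOX17 was closest to SLCO2A1, a prostaglandin transporter gene at 65.3 FPKM in CD13+/ROR2+ (0.999), PREX1 (0.989) and the homeobox gene MSX1 (0.988). SOX4 was closest to SGK1, a kinase gene (0.971), RAI14 (0.971) and CLU, the gene of the chaperone clusterin (0.964). SOX11 was closest to HBD, the delta globin gene listed at 0 in the 5 earlier libraries (0.994), CPS1, an enzyme gene of the urea cycle (0.989), and STAC (0.986).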

How the data were processed

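RNA of 7 samples of a dual-reporter hESC line, all double sorted, was sequenced on an Illumina HiSeq from TruSeq RNA v2 libraries, per the labels' protocols, a kit that does not mark strand. The cell line field differs between samples in a number attached to the NKX2 name, and all samples were treated as 1 line. The day on which the CD13 and ROR2 gate was applied to the day 7 and day 14 fractions is not stated in the labels.

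The authors deposited 1 table of FPKM values per gene symbol and library. Per the submitters' processing notes, Cufflinks and hg19 were used. For the aligner, versions, annotation and multiply mapped reads the sources used here give nothing, and related SOX genes could share reads. Of 23368 rows, 106 were blank and left out, and 3537 genes were at 0 in all libraries.

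Ratios were computed as log2 of (FPKM + 1) quotients with Python 3.11.15 and pandas 2.3.3, for 9 comparisons of 1 library with 1 library. No p-value or SD is given. Named by rule were the 10 SOX genes, other SOX genes reaching 5 FPKM, up to 4 members of each of 11 lists with the largest ratios past the size rule, for each SOX gene reaching 5 FPKM the 3 genes of closest pattern, and genes that RefSeq shows overlapping a SOX gene. Other genes named (such as FOXA2, FGF4, TEAD2, BCL11A, ACAN, PAX6 and the lower SOX genes) were chosen after their values were seen. Members, lists and rules were chosen with earlier results of these data known. Alternatives were pseudocounts of 0.1 and 5, no minimum FPKM, 3 scalings (equal sums, median-ratio over 7780 genes, and equal sums without 1732 small RNA and histone symbols) and, added after seeing the data, leaving out genes at 0 in either library.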

Additional observations from a re-analysis of the deposited data

How the results depend on the processing

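Of 126 counts of SOX genes past the size rule under the alternatives, 115 matched the count reported. Most of the counts reported were 0, and 6 of the SOX genes were below 5 FPKM in every library. Many of these matches were therefore likely from the start. Of 600 ratios compared, 589 kept their call, 2 lost it and 9 gained it. No ratio called as reported changed sign, but few of the 600 were called, so this is a weak check. With a pseudocount of 5, 0 SOX genes were higher in CD13+/ROR2+ than in CD13-/ROR2- and 0 lower in day 7 NKX2-5- than in CD13+/ROR2+ (1 each as reported, SOX17). Without genes at 0 in either library, 0 were higher in CD13+/ROR2+ than in hESC and 0 lower in NKX2-5+ than in CD13+/ROR2+ (1 each as reported, SOX17), by construction. At equal sums of FPKM (the deposited sums run from 108220 in NKX2-5+ to 414781 in NKX2-5-, and are raised to 1000000, so more genes reach the minimum), 3 were lower in CD13+/ROR2+ than in CD13-/ROR2- (SOX2, SOX3 and SOX15), 2 lower than in hESC (SOX2 and SOX3), 2 higher in CD13-/ROR2- than in hESC (SOX15 and SOX17), and 1 (SOX6) higher in NKX2-5+ and 1 (SOX6) in NKX2-5- than in CD13+/ROR2+. Without a minimum FPKM, 1 (SOX6) was higher in NKX2-5- than in CD13+/ROR2+. With a pseudocount of 0.1, 1 (SOX11, 2.08) was higher in aMHC- than in NKX2-5+. Ratios short of the rule changed sign 37 times, most of them near 0. Over all genes, calls in one direction of a comparison numbered 20 to 678 as reported, 15 to 275 with a pseudocount of 5, 23 to 2203 at equal sums, 20 to 404 after median-ratio scaling and 0 to 436 without small RNA and histone genes. No library could be left out with 1 per group. No paired analysis was possible because each group has 1 library and the labels number no replicates. Depth limits the SOX genes under 1 FPKM, most of all in day 7 NKX2-5+.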

Other observations

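SOX8, the third SOXE gene, was between 0.182 FPKM (CD13+/ROR2+) and 1.47 (aMHC-), and SOX21, a SOXB2 gene, between 0 and 0.606, highest in CD13-/ROR2-. SOX14 was listed at 0 in all libraries but hESC (0.270 FPKM), and SOX30 did not exceed 0.252. The 9 SOX family genes outside the 10 summed to 16.3 FPKM in hESC, 12.3 in CD13+/ROR2+, 18.0 in CD13-/ROR2-, 8.77 in NKX2-5+, 16.9 in NKX2-5-, 10.8 in aMHC+ and 11.6 in aMHC-. At equal sums the day 7 order reversed, with 81.0 in NKX2-5+ and 40.8 in NKX2-5-.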
